A study of Mus musculus with 4 samples.

Results

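The ErbB receptors and a set of their ligands were followed through nuclei from the floating, fat-rich layer of the mouse thymus and of epigonadal white fat. The 8 genes were matched by symbol and are 8 of the 32285 genes in the RNA matrices. They are the receptors Egfr, Erbb2, Erbb3 and Erbb4, the neuregulins Nrg1 and Nrg4, and the epidermal-growth-factor-like ligands Hbegf and Btc. They were picked because earlier results of these data placed Erbb4 among the genes that differed most between the thymic and epigonadal libraries, so all values below are descriptions. The values behind that choice were the level and share of nuclei per label and library, and the fragments per label, which are the measures given here.

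All animals were WT, naïve C57/BL6 mice, kept on chow where the design text states the diet. One single-nucleus RNA library came from 6 pooled thymi of 4-month males and 1 from epigonadal white adipose tissue of 4-month males, with the number of epigonadal donors not given in the sources used here. A chromatin library came from 16 pooled thymi of 6-month females and was made together with RNA that was not analysed here. Thymic capsules were stripped of the fat around them, the tissue was digested, and nuclei were taken from the layer that floats. With animals pooled, 1 library per group (n = 1) and no replicate anywhere, no difference has a replicate check and no p-value can be given. All intervals are at 95%, come from exact count distributions and cover counting error only. The authors labelled the 4-month nuclei as Ad Ia or Ad Ib, whose sum is called Ad I here, or as Ad IIa, Ad IIb or Ad IIc.

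ErbB receptors are receptor tyrosine kinases that signal as pairs after a ligand binds. Egfr and Erbb4 bind ligands and carry an active kinase, Erbb2 is the shared partner with no known ligand of its own, and Erbb3 binds neuregulins but has a weak kinase. Nrg1 acts through Erbb3 and Erbb4, Nrg4 through Erbb4, and Hbegf and Btc through Egfr and Erbb4. Most of these ligands are made as membrane proteins and are released by metalloproteases. In fat, Nrg4 is known as a factor secreted by adipocytes, brown ones above all.

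The promoter windows of the 3 members on which the results turn are shown because the chromatin data below bear on them. They come from RefSeq on GRCm38.p6, run 5′ to 3′ on the gene's strand from 250 bases before the start to 50 after it, and 5 of the 8 members had an entry. Erbb4 lies at chr1:69108010-69108309 on the minus strand, Nrg4 at chr9:55283576-55283875 on the minus strand and Egfr at chr11:16751953-16752252 on the plus strand. Capitals mark matches on either strand to any of 5 motifs, which were the GC box (GGGCGG), the CCAAT box, spelled as its name, the TATA box in the form of TATAAA, the nuclear receptor half-site (AGGTCA) and the E-box with the letters CACGTG.
Erbb4: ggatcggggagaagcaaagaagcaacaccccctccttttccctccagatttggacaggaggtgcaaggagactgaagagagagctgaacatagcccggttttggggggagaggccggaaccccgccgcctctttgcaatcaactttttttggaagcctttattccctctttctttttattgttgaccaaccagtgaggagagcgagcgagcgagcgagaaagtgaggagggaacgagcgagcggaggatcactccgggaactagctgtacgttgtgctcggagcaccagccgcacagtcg
Nrg4: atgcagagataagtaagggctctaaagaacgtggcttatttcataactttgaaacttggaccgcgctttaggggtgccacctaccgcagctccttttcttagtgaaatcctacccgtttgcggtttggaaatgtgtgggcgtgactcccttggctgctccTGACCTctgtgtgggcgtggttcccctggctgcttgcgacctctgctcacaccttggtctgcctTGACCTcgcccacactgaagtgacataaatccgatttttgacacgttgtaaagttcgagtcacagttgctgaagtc
Egfr: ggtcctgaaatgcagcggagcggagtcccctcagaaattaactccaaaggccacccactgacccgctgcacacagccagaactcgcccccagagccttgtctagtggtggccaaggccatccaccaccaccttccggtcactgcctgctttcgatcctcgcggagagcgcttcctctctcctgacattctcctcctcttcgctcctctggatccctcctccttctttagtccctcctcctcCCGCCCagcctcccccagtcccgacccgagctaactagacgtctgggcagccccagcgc
The Erbb4 window held 0 of the 5 motifs, and its GC content was 55.3%. The Nrg4 window, at 51.0% GC, held the half-site 2 times, read as TGACCT, at 90 and 26 bases before the start. The Egfr window, at 62.3% GC, held 1 GC box, read as CCGCCC, at 9 bases before the start. Of all 32851 mouse promoter windows of the same length, 16.3% held the half-site, 35.7% the GC box, 37.4% the CCAAT box, 13.6% the TATA box and 7.15% the E-box. A match describes the letters in the window and is not a binding site.

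Depth set what could be seen. The thymic library held 22600 barcodes with 10054839 UMIs (unique molecules), of which 365 nuclei were labelled, and the epigonadal library 5043 barcodes with 6504841 UMIs and 1564 labelled nuclei. These totals include mitochondrial UMIs. Of nuclear-encoded genes the thymic library had 534972 UMIs in labelled nuclei and 4603069 in unlabelled barcodes. The epigonadal library had 2157889 and 3777938. Ad I comprised 84 thymic nuclei with 52241 UMIs of nuclear-encoded genes (median 417.5 per nucleus) and 258 epigonadal nuclei with 263848 (median 701). Levels are given as CPM, the UMIs of a gene scaled to counts per 1000000 over the nuclear-encoded genes of the same sum, so that 3 UMIs, the limit used for a count of 0, equal 57.4 CPM in thymic and 11.4 CPM in epigonadal Ad I. The libraries shared 147 barcode sequences, among them 0 thymic and 9 epigonadal Ad I nuclei.

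The labels were set against markers. Adipoq, the adipocyte hormone adiponectin, stood at 253 CPM in thymic Ad Ia, 203 in thymic Ad Ib, 453 in epigonadal Ad Ia and 299 in epigonadal Ad Ib. In Ad IIa it was at 9.96 CPM in thymic nuclei and at 449 CPM in epigonadal ones. Pecam1, which marks endothelial cells, was at 0 in thymic Ad Ia and 366 CPM in thymic Ad Ib, and at 986 CPM in thymic and 890 CPM in epigonadal Ad IIa. All 10 adipocyte markers were detected in Ad I of both libraries, with summed levels of 11083 CPM (thymic) and 16289.7 CPM (epigonadal), and in Ad IIa, where they summed to 12505 and 24096 CPM. Ad IIa of both libraries carried endothelial RNA as well, with the 10 endothelial markers summing to 12064 CPM (thymic) and 8896 CPM (epigonadal), and a shared label need not be 1 kind of cell.

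Among the receptors, Erbb4 was concentrated in Ad I nuclei of both libraries and was higher in the thymic ones. The gene (chromosome 1, 68031884 to 69108576) spans 1077 kb. Thymic Ad Ia had 35 Erbb4 UMIs (1265 CPM, interval 881 to 1759.9) and thymic Ad Ib had 20 (814 CPM, 497 to 1257). Epigonadal Ad Ia had 27 UMIs (188 CPM, 124 to 274) and epigonadal Ad Ib had 16 (133 CPM, 76.1 to 216). Both thymic intervals lay wholly above both epigonadal ones, and within each library the intervals of Ad Ia and Ad Ib overlapped. In Ad IIa the gene had 7 UMIs among 231 thymic nuclei (17.4 CPM) and 0 among 590 epigonadal nuclei. Thymic Ad IIb and Ad IIc and epigonadal Ad IIb had 0 UMIs, and epigonadal Ad IIc had 6 (11.6 CPM). In the thymic library a count of 0 still allowed 111 CPM in Ad IIb and 55.3 CPM in Ad IIc.

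**Figure D1:**
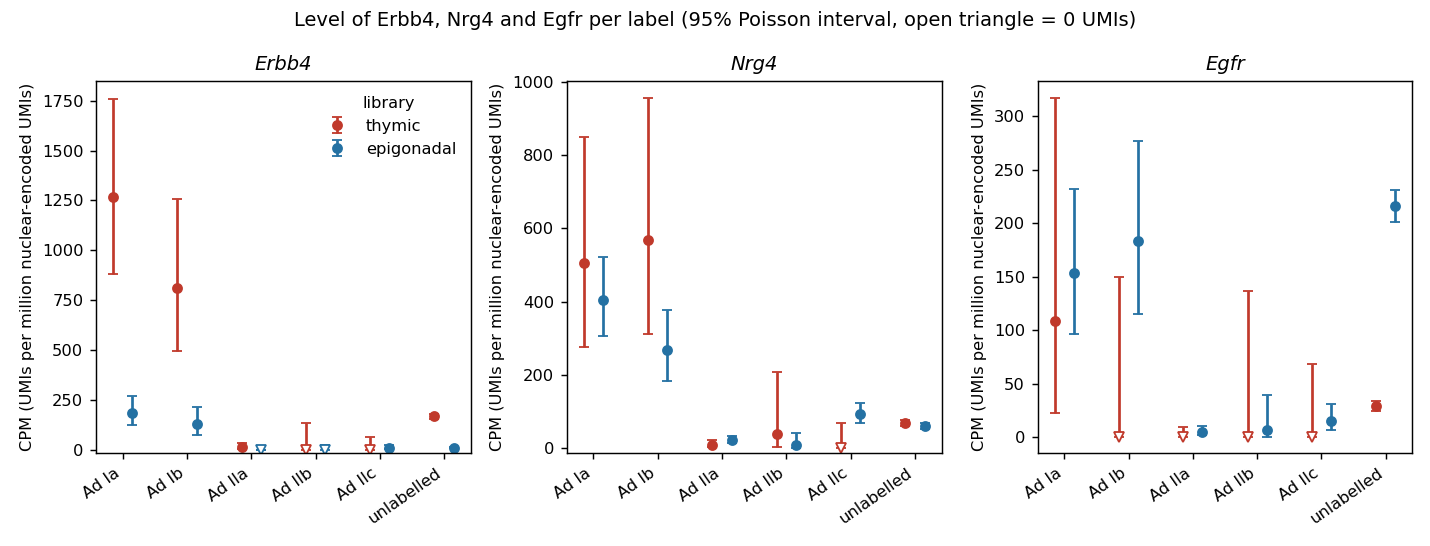
Level of Erbb4, Nrg4 and Egfr (CPM, UMIs scaled to counts per 1000000, vertical axes that differ in range) in each label and in the unlabelled barcodes, with red for the thymic and blue for the epigonadal library. Points are sums over 1 library, bars are 95% Poisson intervals and open triangles are 0 UMIs; the thymic Erbb4 points of Ad Ia and Ad Ib, at 1265 and 814 CPM, sit above every epigonadal Erbb4 point.

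Thymic over epigonadal, the Erbb4 level in Ad I was 1053 against 163 CPM, a log2 ratio of 2.69 (2.09 to 3.30). Ad Ia gave 2.74 (1.98 to 3.53) and Ad Ib 2.60 (1.59 to 3.66). Of the 5346 genes with at least 10 UMIs over both Ad I sums, 15.2% were at least 2-fold higher and 17% at least 2-fold lower in the thymic library, and 30 genes had a ratio above that of Erbb4. Only 4 of the 8 members reached 10 UMIs, of which Erbb4 was past 2-fold higher, Egfr past 2-fold lower and Nrg4 within 2-fold. Nrg1, with 0 against 10 UMIs, was counted as lower only through the 0.5 UMI added to each sum. Nuclear RNA can favour long genes, so genes that span at least 500 kb were set beside Erbb4. Their median log2 ratio was −0.33 over 139 genes against 0.08 over all 5346, with 11 at least 2-fold higher and 37 lower, and 1 of them had a ratio above that of Erbb4. The labels differed in this. In Ad Ia the median was −0.16 over 91 such genes, with 8 higher and 26 lower. In Ad Ib it was 0.34 over 88 against 0.22 over all genes, with 22 higher and 10 lower, and 2 lay above Erbb4. The part of gene length in the Erbb4 ratio was not tested.

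Erbb4 was detected in 30 of 84 thymic Ad I nuclei (35.7%, interval 25.6 to 46.9) and in 38 of 258 epigonadal ones (14.7%, 10.6 to 19.7). Free RNA in the droplets can place UMIs in nuclei that do not express a gene. In 1267 unlabelled thymic barcodes with T-cell markers, which should lack the gene, 25 had an Erbb4 UMI (1.97%, interval 1.28 to 2.89) at a median of 618 UMIs per barcode, against the median of 417.5 in thymic Ad I. In the epigonadal library 1 of 53 such barcodes had one (1.89%, 0.05 to 10.1) at a median of 974 UMIs. Of 19699 unlabelled thymic barcodes that met no marker list, 508 had one (2.58%, 2.36 to 2.81) at a median of only 88 UMIs. The Erbb4 level was 198 CPM in those barcodes and 29.2 CPM in the thymic ones with T-cell markers. The share of Ad I nuclei that free RNA could account for was not tested. When each nucleus was thinned to 500 UMIs, with 26 thymic and 234 epigonadal Ad I nuclei deep enough, the shares were 42.3% (23.4 to 63.1) and 8.55% (5.30 to 12.9). Up to 8 Erbb4 UMIs were seen in 1 thymic nucleus and up to 2 in 1 epigonadal nucleus, with at least 2 UMIs in 12 thymic and 5 epigonadal Ad I nuclei.

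Other values also differed between the libraries in Ad I. The median mitochondrial share of a nucleus's UMIs was 17.3% in thymic and 4.53% in epigonadal Ad I, and the nuclear RNAs Malat1, Neat1 and Meg3 summed to 59455 against 42411 CPM. The 11 T-cell markers summed to 498 CPM in thymic Ad I (7 detected, Cd3e, Cd3d, Cd4 and Ptcra at 0), which is 9.66% of their level in the unlabelled thymic barcodes. In epigonadal Ad I they summed to 91.0 CPM, which is 26.0% of their level in the unlabelled epigonadal barcodes. The 10 endothelial markers summed to 1474 CPM in thymic and 1345 CPM in epigonadal Ad I. By label they summed to 72.3 CPM in thymic Ad Ia, with 8 of 10 at 0, and 773 CPM in epigonadal Ad Ia. In Ad Ib they summed to 3051 CPM in thymic and 2029 CPM in epigonadal nuclei. The thymic Ad Ia sum lay below the 108 CPM that 3 UMIs equal there. The Erbb4 ratio was 2.74 in Ad Ia and 2.60 in Ad Ib. With the profile of the unlabelled barcodes subtracted, the Ad I ratio of Erbb4 was 2.41. With the genes Malat1, Gm42418 and AY036118 left out of the totals it was 2.72. Beyond these alternatives, the part of the mitochondrial share, of nuclear RNA and of endothelial RNA in the ratio was not tested.

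Against Ad IIa of the same library, Erbb4 was higher in Ad I in thymic nuclei by 5.83 (4.78 to 7.30) on the log2 scale. Epigonadal Ad I had 43 UMIs against 0 in Ad IIa. With the 0 set at 3 UMIs and counting error left out, the difference in that library was 6.07 on the log2 scale. There, genes of at least 500 kb as a whole were higher in Ad I, with a median log2 ratio of 3.30 over 163 genes, and 67.5% of them were past 2-fold. In the thymic library the corresponding median was −0.13 over 84 genes, of which 31 (36.9%) were past 2-fold higher and 11 had a ratio above that of Erbb4. Of all genes with at least 10 UMIs, 20.2% were at least 2-fold higher in Ad I in the thymic library and 17.5% in the epigonadal library, so being past 2-fold in this comparison was common.

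**Figure D2:**
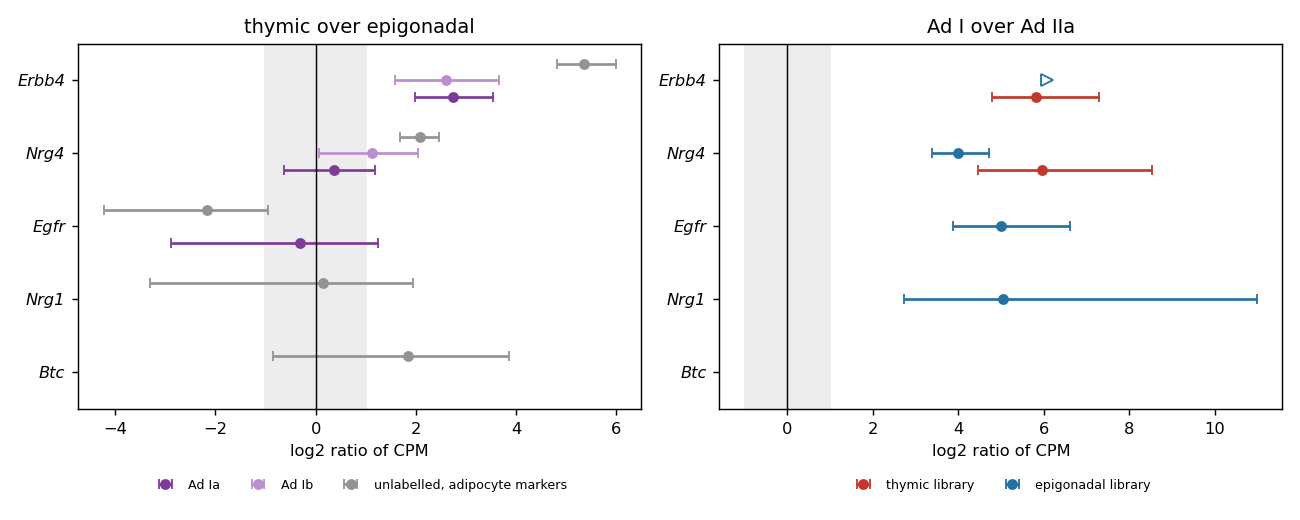
Log2 ratios of CPM with 95% intervals from the exact binomial split, thymic over epigonadal on the left and Ad I over Ad IIa on the right. Drawn are Btc, Nrg1, Egfr, Nrg4 and Erbb4 where they had at least 10 UMIs over both sides and at least 1 UMI on each. Hbegf, which met this rule in epigonadal Ad I over Ad IIa with a ratio of −0.83, is not drawn. The open triangle is the value of 6.07 for epigonadal Erbb4, with its Ad IIa count of 0 set at 3 UMIs and no counting error. The grey band is 2-fold. The 3 Erbb4 ratios on the left, at 2.74, 2.60 and 5.36, lie outside it with their intervals.

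Egfr (chromosome 11, 16752203 to 16913907), the receptor for epidermal growth factor, followed another pattern. It had 22 UMIs in epigonadal Ad Ia (153 CPM, interval 96.0 to 232) and 22 in epigonadal Ad Ib (183 CPM, 115 to 277). In thymic Ad Ia it had 3 UMIs, all in 1 of 35 nuclei, and in thymic Ad Ib 0, where the limit is 122 CPM. Ad I levels were 57.4 CPM (thymic) and 167 CPM (epigonadal), a log2 ratio of −1.33 (−3.87 to 0.10), so the interval takes in no difference. Without the single nucleus that held the 3 UMIs the thymic count was 0 and the ratio −3.97, and it was 0.14 when only the 9 thymic and 79 epigonadal nuclei of 1000 UMIs or more were summed. Egfr was detected in 1 of 84 thymic Ad I nuclei (1.19%, 0.03 to 6.46) and in 34 of 258 epigonadal ones (13.2%, 9.30 to 17.9). Thinned to 500 UMIs, it was seen in 0 of 26 thymic (interval 0 to 13.2%) and 14 of 234 epigonadal nuclei (5.98%, 3.31 to 9.83), and thinned to 300 UMIs in 0 of 75 (0 to 4.80%) and 15 of 258 (5.81%, 3.29 to 9.41). At both depths the intervals overlapped. A separate draw of 500 UMIs in thymic Ad Ia alone found Egfr in 1 of 17 nuclei. Barcodes with T-cell markers had an Egfr UMI in 0 of 1267 thymic cases (interval 0 to 0.29%) and in 1 of 53 epigonadal cases. Thymic barcodes that met no marker list had one in 32 of 19699 cases (0.16%).

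RNA of fibroblasts and of macrophages moved with Egfr. The 10 fibroblast markers summed to 191 CPM in thymic Ad I, with 4 detected (Col1a2, Col3a1, Fbn1 and Dpt) and Pdgfra, Col1a1, Dcn, Lum, Pi16 and Col5a2 at 0, and to 826 CPM in epigonadal Ad I, with all 10 detected. The 10 macrophage markers summed to 211 CPM in thymic Ad I, with 5 detected and Adgre1, Lyz2, F13a1, Cd163 and Ctss at 0, and to 788 CPM in epigonadal Ad I, with all 10 detected. The part of this RNA in the Egfr ratio was not tested. Within the epigonadal library Egfr was higher in Ad I than in Ad IIa, at 167 against 4.85 CPM (log2 ratio 5.005, 3.87 to 6.63), and Ad IIc was at 15.5 CPM from 8 UMIs. The part of fibroblast and macrophage RNA in this difference was not tested either.

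Erbb2 and Erbb3, the partner receptors, were close to undetected. Erbb2 (chromosome 11, 98412484 to 98437716) had 2 UMIs in thymic labelled nuclei, both in Ad IIa, and 14 in epigonadal ones, 11 in Ad IIa and 3 in Ad IIb, with 0 in Ad I of either library. The 0 in epigonadal Ad I allows 11.4 CPM, above the 8.89 CPM measured in epigonadal Ad IIa, so no difference between these labels was detectable at this depth. Erbb3 (chromosome 10, 128567523 to 128589635) had 0 UMIs in thymic labelled nuclei and 3 in epigonadal ones. Of the 13 Erbb3 UMIs in unlabelled thymic barcodes, 4 lay in the 2 barcodes that carried Schwann-cell markers, glia of peripheral nerve.

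Among the ligands, Nrg4 (chromosome 9, 55220222 to 55283654) had the most UMIs in labelled nuclei, 196 over both libraries, and, like Erbb4, was concentrated in Ad I. Thymic Ad Ia had 14 UMIs (506 CPM, interval 277 to 849) and thymic Ad Ib 14 (570 CPM, 311 to 956). Epigonadal Ad Ia had 58 UMIs (404 CPM, 307 to 522) and epigonadal Ad Ib 32 (266 CPM, 182 to 376). All 4 intervals overlapped. Ad IIa held 3 thymic UMIs (7.47 CPM) and 26 epigonadal ones (21.0 CPM), and epigonadal Ad IIc, the label with the highest Adipoq level of 2513 CPM, held 47 (91.1 CPM). Ad IIb had 1 UMI in each library and thymic Ad IIc had 0, which allows 55.3 CPM.

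Nrg4 in Ad I stood at 536 CPM (thymic) and 341 CPM (epigonadal), a log2 ratio of 0.67 (−0.02 to 1.28). Ad Ia gave 0.36 (−0.63 to 1.19) and Ad Ib 1.13 (0.08 to 2.04), so only the Ad Ib interval left out 0. Nuclei with a UMI made up 25.0% of thymic (21 of 84) and 26.4% of epigonadal Ad I (68 of 258), against 0.39% of thymic barcodes with T-cell markers. In the thymic barcodes that met no marker list the share was 0.99% (196 of 19699), at a median of 88 UMIs. Thinned to 500 UMIs, with 26 thymic and 234 epigonadal nuclei kept, the shares were 15.4% (interval 4.36 to 34.9) and 15.0% (10.6 to 20.2). Thinned to 300 UMIs, the gene was seen in 15 of 75 thymic nuclei (interval 11.6 to 30.8%) and in 28 of 258 epigonadal nuclei (10.9%, 7.33 to 15.3), and at both depths the intervals overlapped. Against Ad IIa, Nrg4 was higher in Ad I by 5.97 (4.47 to 8.53) on the log2 scale in thymic and by 4.00 (3.38 to 4.71) in epigonadal nuclei.

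Levels of different genes were compared per kilobase of gene span. In thymic Ad I the level per kilobase was 8.45 CPM for Nrg4, 0.98 for Erbb4, 0.84 for Btc, from 2 UMIs, and 0.36 for Egfr. In epigonadal Ad I it was 5.38 CPM for Nrg4, 1.03 for Egfr, 0.15 for Erbb4 and 0.035 for Nrg1. Between Egfr and Erbb4 lay Hbegf at 0.35, Erbb3 at 0.34 and Btc at 0.25, each from 3 UMIs or fewer. Per kilobase Nrg4 stood highest in both libraries, while undivided Erbb4 stood above Nrg4 in thymic Ad I. The order therefore turns on the division by span, and no source at hand says how introns were counted.

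The remaining ligands gave few UMIs. Nrg1 (chromosome 8, 31807452 to 32891609), whose span of 1084 kb is as long as that of Erbb4, had 10 UMIs in epigonadal Ad I (37.9 CPM, 9 nuclei) and 1 in epigonadal Ad IIa, a log2 ratio of 5.04 (2.74 to 10.99). In thymic Ad I it had 0 UMIs, and the limit of 57.4 CPM lies above the epigonadal level, so a difference was not detectable at this depth. Hbegf, a heparin-binding ligand, had 4 UMIs in thymic Ad IIa (9.96 CPM) and, in the epigonadal library, 12 in Ad IIa (9.70 CPM), 7 in Ad IIb (49.7 CPM) and 1 in Ad Ib. Its thymic over epigonadal log2 ratio in Ad IIa was 0.15 (−2.05 to 1.76). Btc, betacellulin (chromosome 5, 91357261 to 91402994), had 2 UMIs in thymic Ad Ib and, in the epigonadal library, 3 in Ad Ia, 1 in Ad IIa and 7 in Ad IIc, the last in 5 nuclei.

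In Ad IIa, thymic over epigonadal, 3 members reached 10 UMIs. Nrg4 had a log2 ratio of −1.30 (−3.86 to 0.21), Erbb2 of −0.58 (−4.05 to 1.36) and Hbegf of 0.15, and each interval included 0. Past 2-fold lower was 1 of these 3, against 16.2% of the 9775 genes compared, and past 2-fold higher were 0 of 3, against 5.44%. Erbb4, with 7 thymic and 0 epigonadal UMIs, fell short of 10.

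RNA of the receptor Erbb4 and of its ligand Nrg4 was at times seen in the same nuclei. Among 84 thymic Ad I nuclei, 8 had UMIs of both Erbb4 and Nrg4, 22 of Erbb4 alone, 13 of Nrg4 alone and 41 of neither. Erbb4 was present in 38.1% of nuclei with Nrg4 and in 34.9% of those without. In epigonadal Ad I, 10 of 258 nuclei had both, and the shares were 14.7% and 14.7%. The single thymic Ad I nucleus with Egfr also had Erbb4. Detection rises with the depth of a nucleus, and these shares were not corrected for it.

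**Figure D3:**
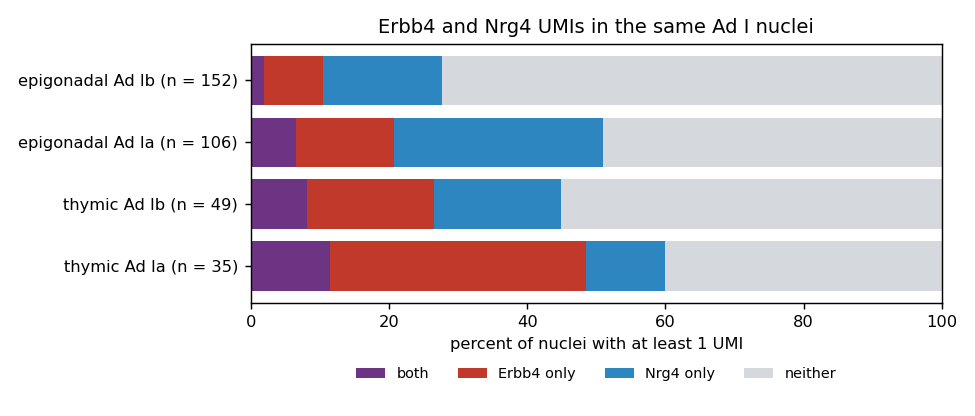
Percent of Ad I nuclei (horizontal axis) with UMIs of both Erbb4 and Nrg4, of 1 of them or of neither, for Ad Ia and Ad Ib of each library, with the number of nuclei beside each bar. The red segment, Erbb4 alone, holds 13 of the 35 thymic Ad Ia nuclei, and nuclei with both genes number 4 of 35 there.

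The genes whose pattern over the 10 sums of library and label was most like that of Erbb4 were found by Pearson correlation of log2(CPM + 10) among 4555 genes. The 5 nearest were Rgs7 (r = 0.99), which encodes a regulator of G-protein signalling, Dpyd (0.97), which encodes a pyrimidine-degrading enzyme, Ralgapa2 (0.96), Cpq (0.96) and Hsd17b12 (0.96). Rgs7 stood at 1157 and 773 CPM in thymic Ad Ia and Ad Ib and at 334 and 266 CPM in the epigonadal ones. For Nrg4 they were Sgcd (0.98), Gnpat (0.98), Ifrd1 (0.98), Myl1 (0.97) and Pde3b (0.96), the last a phosphodiesterase that acts in insulin signalling in fat. The correlation between Erbb4 and Nrg4 was 0.90. The 10 points come from only 2 libraries and share their depth, so these values describe likeness and carry no p-value.

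Other genes of the pathway were taken from 5 lists with 81 genes. In Ad I, 51 of them reached 10 UMIs over both libraries. Of these, 5 were at least 2-fold higher and 6 at least 2-fold lower in the thymic library and 40 lay within 2-fold, with a median log2 ratio of 0.0018 against 0.08 for all 5346 genes. These shares were below the 15.2% and 17% of all genes. Among the 1084 genes with at least 50 UMIs, however, only 9.13% were at least 2-fold higher and 10.6% lower. The background was not matched to the depth of the pathway genes. None of the 7 other ligands and none of the 9 response genes reached 10 UMIs.

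Among 6 shedding enzymes and their regulators, 0 were past 2-fold higher and 1 lower. Adam15 had 1 thymic and 29 epigonadal UMIs (log2 ratio −1.96, −7.87 to 0.07), and Timp3, an inhibitor of these proteases, was at −0.44. Adam12, a metalloprotease that releases Hbegf, was at 670 against 428 CPM (0.66, 0.05 to 1.20) and Adam10, which releases Btc, at 0.75. Both ends of this list therefore had intervals close to or including 0.

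Among 14 genes that damp or turn over the receptors, 1 was higher and 0 lower. Lrig2, a membrane protein of the receptor-regulating Lrig family, had 8 against 14 UMIs (1.57, 0.07 to 2.88) and the ubiquitin ligase Cblb was at 0.89 (0.09 to 1.59). Rnf41, the ubiquitin ligase for Erbb3, was at −0.60 and Erbin, which binds Erbb2, at −0.37. Among 31 adaptors and kinases, 4 were higher and 5 lower. Grb2, which links the receptors to Ras, was at 76.6 against 292 CPM (−1.77, −3.84 to −0.52). Mtor was at 1.27 with an interval of −0.68 to 2.84, and Pik3r2 had 0 against 10 UMIs, a difference below the thymic limit.

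Ad I was also compared with Ad IIa within each library. In the thymic library 7 pathway genes were at least 2-fold higher and 21 lower in Ad I than in Ad IIa, of 55 compared, where 20.2% and 28.2% of all genes were. In the epigonadal library 11 were higher and 13 lower of 70, where 17.5% and 19.8% of all genes were. Adam12 was higher in Ad I in both, by 5.004 (3.94 to 6.39) among thymic and 3.52 (3.02 to 4.05) among epigonadal nuclei, as was Pik3r1, a regulatory subunit of phosphoinositide 3-kinase, by 2.94 and 2.30. Timp3 was lower in both, at −2.94 and −2.25, as were Spred2, an inhibitor of the Ras pathway, at −2.22 and −1.58, and the adaptor Nck1, at −2.55 and −1.80. Egr1, an early response gene, was at −2.19, from 1 thymic Ad I UMI, and at −1.76. Spry1, a receptor-signalling inhibitor, had 0 thymic Ad I UMIs against 41 in Ad IIa, with an interval that ended at −0.47 on the log2 scale. With the 0 set at 3 UMIs and counting error left out, Spry1 was lower by 0.83. In the epigonadal library it was at −1.88. The kinase gene Mapk3 was at −1.80 in the epigonadal library, while its 0 against 21 thymic UMIs lay below the limit. Rhbdf2, which aids the maturation of a shedding protease, was at 2.20 (−0.09 to 4.11) among thymic and at −1.89 (−5.29 to −0.26) among epigonadal nuclei, and only the latter interval left out 0. Lrig1, which promotes the breakdown of ErbB receptors, had 42 UMIs in epigonadal Ad I and 2 in epigonadal Ad IIa (6.32, 4.68 to 9.71). In Ad IIa itself, thymic over epigonadal, 4 pathway genes were higher and 9 lower of 68, shares near the 5.44% and 16.2% of all genes.

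Except for Hbegf, with 24 labelled and 17 unlabelled UMIs, each member had more UMIs over both libraries outside the labelled nuclei than in them. Unlabelled barcodes also held more nuclear-encoded UMIs in each library, so these counts do not compare levels. As CPM, Nrg4 was at 76.0 in labelled and 60.1 in unlabelled epigonadal barcodes, and at 59.8 and 66.9 in thymic ones. Unlabelled barcodes held 784 thymic Erbb4 UMIs (170 CPM) and 51 epigonadal ones (13.5 CPM), and for Egfr the counts were 132 (28.7 CPM) and 816 (216 CPM). These barcodes, 22235 thymic with a median of 97 UMIs and 3479 epigonadal with a median of 689, were sorted by the marker lists, requiring at least 3 markers of a list and 2 more than of any other. The sets are cuts along a marker count and not cell types. Of 736 thymic barcodes with adipocyte markers 490 had exactly 3 such markers, and of 2050 epigonadal ones 100 did. The median barcode had 4 UMIs of the adipocyte list in the thymic and 33 in the epigonadal set, and 0 of each of the other 11 lists in both. A fibroblast-list UMI was present in 3.80% of the thymic and 37.8% of the epigonadal barcodes. For the endothelial list the shares were 10.7% and 41.0%, and for the macrophage list 3.80% and 21.4%. The T-cell list went the other way, at 23.8% against 6.24%. So did the B-cell list (36.1% and 34.4%) and the erythroid list (29.6% and 26.7%), while the lists not named were lower in the thymic set. These shares were not matched for depth, whose median was 217 UMIs per thymic barcode against 623 per epigonadal barcode.

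In the unlabelled barcodes with adipocyte markers, Erbb4 was at 742 CPM in thymic (167 UMIs, interval 634 to 864) and at 17.8 CPM in epigonadal ones (31 UMIs, 12.1 to 25.3). The log2 ratio of 5.36 (4.82 to 5.98) was larger than the 2.69 of Ad I, although the nuclei are others. Nrg4 was at 395 against 93.7 CPM (2.08, 1.69 to 2.46) and Egfr at 17.8 against 89.7 CPM (−2.17, −4.23 to −0.95). The fibroblast markers moved with Egfr here too, summing to 129 CPM in the thymic set (8 of 10 detected, with Col1a1 and Pi16 at 0) and 695 CPM in the epigonadal set (10 of 10). The macrophage markers summed to 133 CPM (8 of 10, with Adgre1 and Csf1r at 0) and 428 CPM (10 of 10). The part of either list in the Egfr ratio was not tested. Nrg1 was at 0.14 (−3.29 to 1.94) and Btc, with 3 against 7 UMIs, at 1.85 (−0.86 to 3.86). Of 11154 genes compared, 19% were at least 2-fold higher and 21.7% lower, and 3 and 1 of the 5 members compared were. Genes of at least 500 kb had a median of 0.89 here against 0.06 for all genes, and 0 of 177 had a ratio above that of Erbb4. At least 2-fold higher were 79 of them (44.6%), and the part of gene length in the Erbb4 ratio was not tested here either. The part of T-cell RNA, found in a larger share of the thymic barcodes, was also not tested.

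Nrg4 and Erbb4 met in 30 of these 736 thymic barcodes. Erbb4 was found in 39.5% of the barcodes with Nrg4 and in 12.7% of those without. Depth moved with this difference, with a median of 354 UMIs in barcodes with Erbb4 and 197.5 in those without, and its part was not tested.

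Egfr had its highest level in the barcodes with fibroblast markers. It stood at 961 CPM (80 UMIs, interval 762 to 1196) in 57 thymic and at 1960.2 CPM (410 UMIs, 1775 to 2159) in 140 epigonadal barcodes, which was 60.6% and 50.2% of its unlabelled UMIs. Detected in 49.1% and 75.7% of them at medians of 1023 and 1026 UMIs, it was lower in the thymic set by −1.02 (−1.39 to −0.68) on the log2 scale. Past 2-fold lower were 12.4% of the 4866 genes compared, and past 2-fold higher 8.98%. Of these barcodes 7 thymic and 9 epigonadal had exactly 3 markers, and their median adipocyte-list count was 1 UMI in the thymic and 3 in the epigonadal set. Erbb4 had 1 UMI in the thymic and 2 in the epigonadal fibroblast-marked set.

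**Figure D4:**
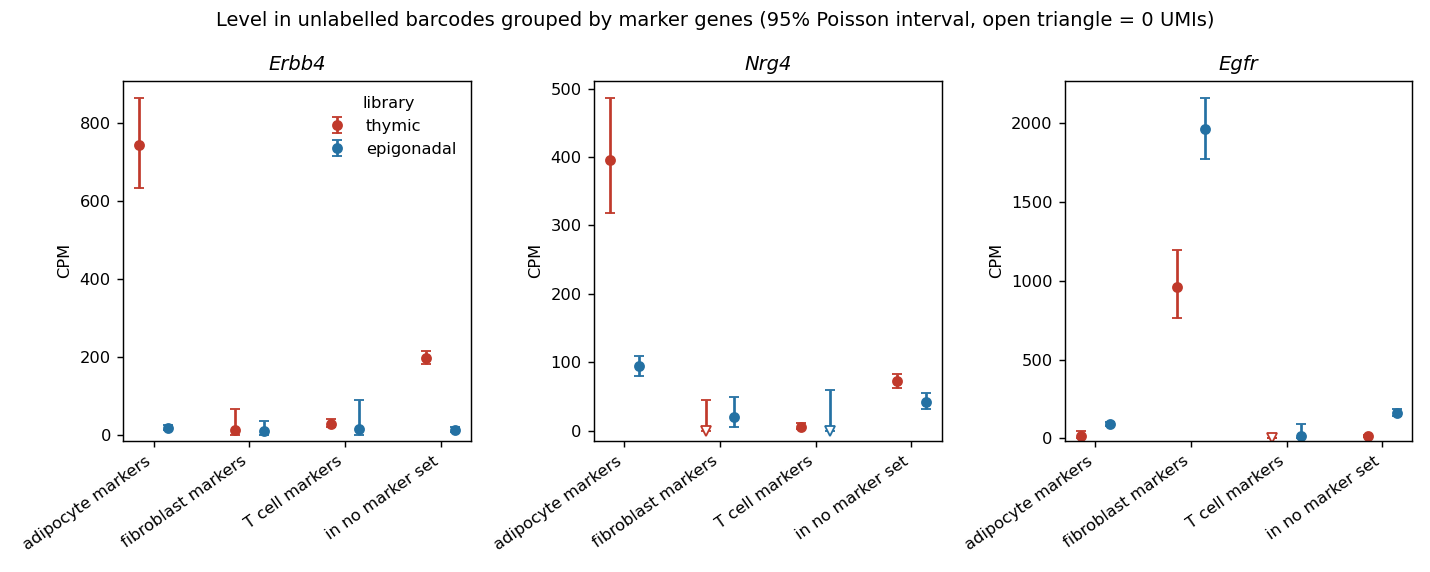
Level of Erbb4, Nrg4 and Egfr (CPM, vertical axes that differ in range) in unlabelled barcodes grouped by marker genes, with 95% Poisson intervals and open triangles for 0 UMIs. Thymic barcodes with adipocyte markers stand at 742 CPM for Erbb4 and 395 CPM for Nrg4, and barcodes with fibroblast markers lead for Egfr in both libraries.

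Barcodes that met no list held 2897919 of the 4603069 nuclear-encoded UMIs of unlabelled thymic barcodes and 1291834 of the 3777938 epigonadal ones. The 961 epigonadal ones held 210 Egfr UMIs (163 CPM), against 216 CPM over all unlabelled epigonadal barcodes. The 19699 thymic ones, with a median of 88 UMIs, held 574 Erbb4 UMIs (198 CPM) and 209 Nrg4 UMIs (72.1 CPM). Over all unlabelled thymic barcodes these levels were 170 and 66.9 CPM. The Erbb4 level in the thymic barcodes of no list exceeded that of the T-cell-marked thymic barcodes (29.2 CPM, interval 19.7 to 41.7) and of the 228 endothelial-marked ones (39.9 CPM, 19.1 to 73.3). Neither interval reached that of the barcodes in no set, 182 to 215 CPM.

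Chromatin accessibility was read from nuclei of 6-month female thymi. The file held 101060606 fragments, of which 4397902 (4.35%) belonged to the 317 nuclei whose labels could be used: 146 thyAD I, 140 thyAD II and 31 Immune. Whether thyAD I and thyAD II are the Ad I and Ad II of the 4-month RNA is not stated in the sources used here, and they also differ from it in sex and age. Levels are fragment counts per 1000000 of the label's total (fragment CPM) over the gene body with 2 kb on either side. Over these windows none of the 8 members differed by 2-fold between thyAD II and thyAD I, where 4.46% of 27863 genes were at least 2-fold higher and 2.99% lower.

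Erbb4 stood at 179 fragment CPM in thyAD I (295 fragments), 153 in thyAD II (336) and 130 in Immune nuclei (73), with a log2 ratio of thyAD II over thyAD I of −0.22 (−0.45 to 0.01). Nrg4 stood at 150, 139 and 103, with a ratio of −0.11 (−0.35 to 0.14). Immune over thyAD I, the ratios were −0.45 (−0.85 to −0.09) for Erbb4 and −0.53 (−0.98 to −0.12) for Nrg4. Both intervals lay below 0 and both ratios within 2-fold, where 9.48% of 24622 genes were at least 2-fold lower and 9.5% higher.

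The receptors Egfr and Erbb2 had more fragments in thyAD II. Egfr stood at 83.8 fragment CPM in thyAD I, 135 in thyAD II and 65.9 in Immune nuclei, with a ratio of 0.69 (0.39 to 0.99), above that of 90.5% of genes. Erbb2 stood at 20.04, 35.2 and 32.1, with a ratio of 0.80 (0.21 to 1.45), above that of 92.8% of genes. Most of these Erbb2 fragments lay in bins of 1 kb that overlap the neighbouring gene Mien1. Without those bins 7 fragments were left in thyAD I, 38 in thyAD II and 5 in Immune nuclei (4.25, 17.4 and 8.91 fragment CPM), and the ratio was 1.95 (0.85 to 3.44), past 2-fold, with no such ratio computed for all genes. The intervals of Erbb3 (−0.14), Nrg1 (0.11), Hbegf (0.31) and Btc (−0.20) included 0. Between the authors' clusters within a label, 0 of 8 members were past 2-fold. For cluster 3 over cluster 1 of thyAD I, 3.77% of genes were at least 2-fold higher and 6.24% lower, and for cluster 4 over cluster 0 of thyAD II the shares were 3.48% and 3.47%.

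Around the start of transcription the counts were small. Within 1 kb of the RefSeq start, Erbb4 had 33 fragments in thyAD I, 26 in thyAD II and 2 in Immune nuclei (log2 ratio of thyAD II over thyAD I −0.75, −1.55 to 0.03). Nrg4 had 44, 40 and 9 (−0.55, −1.20 to 0.10), Egfr 14, 34 and 5 (0.84, −0.07 to 1.88) and Erbb2 4, 19 and 1 (1.70, 0.25 to 3.85). Of these, only the Erbb2 interval left out 0. The printed promoter windows held 6 and 4 fragments of thyAD I and thyAD II for Erbb4, 32 and 31 for Nrg4 and 7 and 17 for Egfr.

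**Figure D5:**
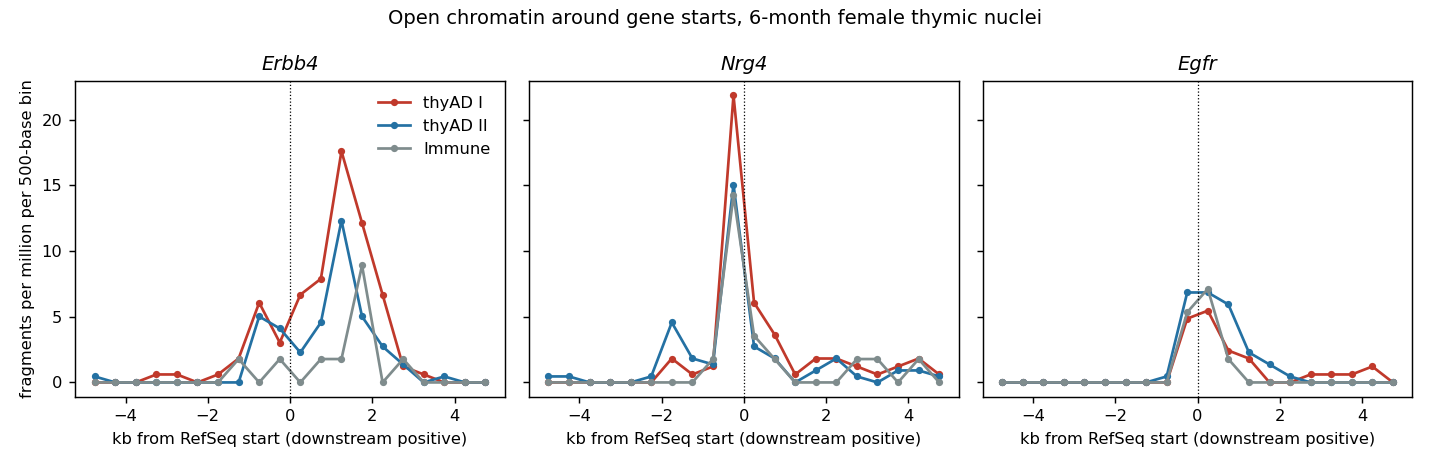
Fragment CPM of each label (vertical axis) in bins of 500 bases against distance from the RefSeq start (horizontal axis, kb, downstream positive) for Erbb4, Nrg4 and Egfr in the 6-month thymic nuclei. The Erbb4 signal peaks downstream of the start, within the gene, while the Nrg4 peak lies at the start; lines join sums over 1 library and carry no error bars.

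The most accessible 1 kb of Erbb4 lay inside the gene. At chr1:69105884-69106883, centred 1.68 kb downstream of the start, it had 34 fragments in thyAD I and 28 in thyAD II. The neighbouring chr1:69106884-69107883 had 25 and 16, a log2 ratio of −1.04 (−2.06 to −0.09), and another bin, at chr1:68973884-68974883, 134 kb downstream of the start, had 20 and 16. Of the 1080 bins of the gene, 722 held no fragment. No other gene of the annotation overlapped these 3 bins.

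For Nrg4 the leading bin, chr9:55283222-55284221, covered the printed promoter and had 39 fragments in thyAD I and 35 in thyAD II. The next, chr9:55255222-55256221, 27.9 kb downstream of the start, had 19 and 34. For Egfr the leading bin was within the gene, 48.5 kb downstream of the start at chr11:16800203-16801202, with 16 and 42 fragments (0.95, 0.12 to 1.91), ahead of the bin at the start with 13 and 27. The leading bins of Erbb2, Erbb3 and Hbegf overlapped the neighbouring genes Mien1, Pa2g4 and Gm41698, and cannot be assigned to the members. They held 62, 213 and 62 fragments of thyAD I and thyAD II. With fragments in any bin overlapping another gene left out, the ratio was 1.95 for Erbb2, 0.30 (−0.47 to 1.13) for Erbb3 and 1.70 (−0.87 to 7.70) for Hbegf, the last from 1 and 6 fragments. For the other 5 members it stayed within the interval of the whole window.

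Of the 81 other pathway genes, 80 had at least 10 fragments over thyAD I and thyAD II, and 0 were past 2-fold in either direction, with a median log2 ratio of 0.06 against 0.02 for all genes. Of all 27863 genes, 4.46% were at least 2-fold higher in thyAD II and 2.99% lower. With a minimum of 50 fragments, 211 of 17897 genes were past 2-fold.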

How the data were processed

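The RNA matrices deposited by the authors hold raw UMI counts, and cellranger 7.2.0 wrote them per the file headers. The fragment file with its read counts was written by cellranger-arc 2.0.2 for GRCm38, per the file headers. Seurat 5.1.0 and mm10 are named in the submitters' processing notes. How introns were counted in the RNA is not stated in any source used here. The deposited nucleus tables gave labels, a singlet class for every labelled nucleus and the percent of mitochondrial UMIs. No doublet caller was run here. The 6-month table used here stopped inside row 318, so its 317 complete rows were used.

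For each label of a library the UMIs of a gene were summed and divided by those of all nuclear-encoded genes. Before each log2 ratio 0.5 UMI was added to both sums, and a ratio required 10 UMIs over both sides. Poisson, binomial-split and Clopper-Pearson intervals cover counting error only, since UMIs remove copies made by PCR but fragments of 1 pooled library are no replicates. Shares were also computed after drawing 500 UMIs per nucleus. Each thinned share rests on a single random draw, made anew for each set of nuclei, and its interval leaves out the error of the draw. Whole fragments were counted over gene bodies plus 2 kb with RefSeq coordinates on GRCm38.p6. Python with numpy 2.4.6, pandas 2.3.3 and scipy 1.17.1 and, for TMM factors, edgeR 4.0.16 in R 4.3.3 were used, and the ratio and interval code was tested on simulated data.

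The members, gene lists and comparisons were chosen with earlier results of these data known. Named were all 8 members, the 2 highest and 2 lowest genes of each pathway list by ratio with at least 10 UMIs, the 5 genes most like a member with at least 100 labelled UMIs, and marker genes; 1 gene of this rule is not reported here. In the comparisons of Ad I with Ad IIa the named pathway genes are those at the end of their list in both libraries and Lrig1, a choice made after their values were seen. Alternatives were TMM scaling, scaling by median of ratios, nuclei weighted equally, the unlabelled profile subtracted, deeper nuclei, single labels, another number of added UMIs and other minimums. For Ad I, thymic over epigonadal, another alternative left Malat1, Gm42418 and AY036118 out of the totals.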

Additional observations from a re-analysis of the deposited data

Results flagged for a closer look

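Nrg4 lay on opposite sides of 0 in 2 labels, thymic over epigonadal. Its log2 ratio was 0.67 (interval −0.02 to 1.28) in Ad I, from 28 thymic and 90 epigonadal UMIs, and −1.30 (−3.86 to 0.21) in Ad IIa, from 3 and 26 UMIs. Each interval includes 0. With 1 library per group the difference between the labels was not tested.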

How the results depend on the processing

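No paired analysis was possible because each group is 1 library. Over 34 results, 200 alternatives were computed, of which 170 stayed within the counting interval of the reported value (for counts of genes, within 1.5 times), 27 moved further and 3 turned a ratio past 2-fold to the other sign. Of 178 alternatives for ratios, 24 changed the sign or the side of 2-fold, 10 of them the sign. TMM and median-of-ratios scaling, the unlabelled profile subtracted and shared barcodes removed changed neither for any member, and no alternative did for Erbb4. TMM shifted the ratios in Ad I by −0.34 on the log2 scale and the thymic Ad I over Ad IIa ratios by −0.41. Ratios past 2-fold that changed sign were Egfr in Ad I, thymic over epigonadal, at 0.14 with at least 1000 UMIs per nucleus, and, with 5 UMIs added in place of 0.5, Nrg1 in Ad I at 0.75 (from −2.06) and Erbb2 in epigonadal Ad I over Ad IIa at 0.55 (from −2.29). The latter 2 pairs have a 0 on 1 side. Within 2-fold, in Ad IIa, Erbb2 (−0.58) was 0.43 with 5 UMIs added and −1.11 with nuclei weighted equally, and Hbegf (0.15) was −0.06 with nuclei weighted equally and −0.21 without 1 nucleus. Hbegf in epigonadal Ad I over Ad IIa (−0.83) was 0.73 with 5 UMIs added and 0.30 in Ad Ib alone. Erbb4 in epigonadal Ad I over Ad IIa was 5.49 with 5 UMIs added and 8.67 with 0.5, and Egfr in Ad I was −3.97 without 1 thymic nucleus. Thinning to 500 UMIs gave shares of 15.4% for thymic Nrg4, 0% for thymic Egfr, and 8.55% for Erbb4, 15.0% for Nrg4 and 5.98% for Egfr in epigonadal Ad I. Thinning to 300 UMIs, chosen after seeing the data like the removal of single nuclei and of shared barcodes, gave 26.7%, 15 of 75 nuclei and 0% for thymic Erbb4, Nrg4 and Egfr and 5.04%, 10.9% and 5.81% for the epigonadal 3. A minimum of 3000 fragments left all 317 nuclei in and is not counted above. Genes past 2-fold with the minimum of 10, without it and with a minimum of 50 numbered 1721, 4907 and 214 in Ad I, 2120, 4564 and 690 in Ad IIa, 2954, 7397 and 844 in thymic Ad I over Ad IIa, 3751, 8674 and 1691 in the epigonadal one, and 2076, 11985 and 211 for fragments of thyAD II over thyAD I. For these fragments, windows of 1 kb around both gene ends gave −0.92 for Erbb4, −0.41 for Nrg1, which had 0 fragments there, and −0.41 for Nrg4. Without bins overlapping another gene, also chosen after seeing the data, Erbb2 was at 1.95, Erbb3 at 0.30 and Hbegf at 1.70. The causes of these moves were not tested. Every value rests on 1 library, and in thymic Ad I a count of 0 allows up to 57.4 CPM.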
